A study of Mus musculus with 2 samples.

Results

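Immediate early and dissociation response genes are genes that cells switch on quickly after growth factors, mechanical stress, heat or the enzymes used to free cells from a tissue. A list of 38 such genes was followed through single cells of the mouse lower incisor. It was chosen by symbol, and 37 of the 38 symbols occur among the 19626 genes of the count matrix (Cebpd was not analysed here). Egr3 stayed too low to compare in any cluster. Fosl1, an AP-1 subunit, could be compared in 1 cluster.

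The cells come from the cervical loop region of the lower incisor, where stem cells renew the enamel-forming epithelium through life, and include the surrounding mesenchyme. One library was made from 1 control mouse and one from 1 Memo1;K14CRE mouse, both at postnatal day 20. Keratin 14 drives the Cre recombinase in epithelial cells, so deletion of Memo1 is directed to the epithelium and not to mesenchymal, blood or vascular cells. Both tissues were opened with warm proteases before capture on the 10x Genomics 3′ platform, and neither the deleted part of Memo1 nor the breeding of the control mouse are given by the labels.

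The control library holds 9708 cells and 79518656 UMIs (unique molecular identifiers, each counting 1 captured RNA molecule). The mutant library holds 13820 cells and 120862385 UMIs, and 139 cell barcodes occur in both. The median cell had 2643 UMIs in the control library and 6798 in the mutant library, with single cells between 501 and 49967. The authors placed 2981 control and 2303 mutant cells in an ameloblast lineage with clusters of its own, called ameloblast clusters here. The other 6727 control and 11517 mutant cells keep the numbers of the clustering of all cells, called all-cell clusters. Of 30 clusters, 26 had at least 50 cells in each library and were compared. With 1 mouse per genotype there is no replicate, no test and no p-value. A level is in CPM, a gene's share of the cluster's UMIs scaled to counts per 1000000. Its interval is an exact 95% Poisson interval, and the interval of a ratio is the exact conditional one for a pair of counts. Both cover counting error only, and genotype, mouse and library preparation cannot be told apart.

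A gene was compared in a cluster where both libraries together held at least 20 counts and the higher library reached 10 CPM. It was called higher or lower where the ratio reached 2-fold and its interval left out 1.

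Immediate early genes need no new protein to be transcribed: factors already bound at their promoters, such as CREB and SRF with its ternary complex partners, are activated by kinases within minutes. Their products include the AP-1 subunits and EGR factors, which act on later genes, and the feedback proteins DUSP1, ZFP36, BTG2 and SOCS3, which end the signal or destroy the transcripts. Heat shock genes are driven by another factor, HSF1, and encode chaperones that refold damaged proteins. In tissue freed by enzymes at body temperature, genes of both kinds are known to be induced during the procedure itself, so a level can reflect handling as well as the state of the cell in the animal.

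The members were read in 6 role groups. The first holds 9 AP-1 and related leucine zipper factors (Fos, Fosb, Fosl1, Fosl2, Jun, Junb, Jund, Atf3, Maff). The next holds 8 zinc finger factors and nuclear receptors (Egr1, Egr2, Egr3, Klf2, Klf4, Klf6, Nr4a1, Nr4a2). Ier2, Ier3 and Ier5 form a group of their own. The 7 feedback genes are Dusp1 and Dusp2 (phosphatases of MAP kinases), Zfp36 and Zfp36l1 (proteins that bind AU-rich transcripts and speed their decay), Btg1 and Btg2 (anti-proliferative adaptors of the deadenylase complex) and Socs3 (an inhibitor of cytokine receptors). The 5 heat shock members are Hspa1a, Hspa1b, Hspa8, Hsph1 and Dnajb1. Myc, Gadd45b, Gadd45g, Cebpb and Rhob are the growth and stress effectors.

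The promoters and transcript ends were searched for letters that are known to bind inducing factors or to shorten the life of a transcript, and some members carry them. RefSeq start sites on GRCm38.p6 were found for 31 of the 37 members. The 250 bases before the start are printed for 6 of them, chosen because they hold one of the motifs searched and recur in the results. Capitals mark the motif: TGACGT or the full TGACGTCA, the site named for CREB, in Fos, Dusp1 and Btg2, together with the TATAAA box of Fos; the CArG box, to which SRF binds, in Zfp36; and GAANNTTC, a pair of heat shock units, in Hspa1a and Hspa1b.
Fos (chr12:85473640-85473889, plus strand): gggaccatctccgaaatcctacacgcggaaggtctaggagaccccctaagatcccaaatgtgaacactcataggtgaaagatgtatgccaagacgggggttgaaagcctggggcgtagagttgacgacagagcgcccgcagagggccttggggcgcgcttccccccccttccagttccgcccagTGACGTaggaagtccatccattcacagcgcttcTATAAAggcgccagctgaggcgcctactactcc
Dusp1 (chr17:26508473-26508722, minus strand): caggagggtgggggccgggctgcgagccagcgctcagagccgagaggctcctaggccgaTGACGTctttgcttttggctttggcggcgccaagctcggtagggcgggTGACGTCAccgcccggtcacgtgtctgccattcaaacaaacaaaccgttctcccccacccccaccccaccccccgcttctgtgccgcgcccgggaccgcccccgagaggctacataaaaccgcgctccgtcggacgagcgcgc
Btg2 (chr1:134079156-134079405, minus strand): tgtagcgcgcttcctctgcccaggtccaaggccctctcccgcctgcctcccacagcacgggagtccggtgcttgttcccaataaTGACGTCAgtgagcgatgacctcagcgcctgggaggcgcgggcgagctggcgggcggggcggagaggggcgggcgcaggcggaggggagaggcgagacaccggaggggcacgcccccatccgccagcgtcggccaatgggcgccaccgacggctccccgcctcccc
Zfp36 (chr7:28379229-28379478, minus strand): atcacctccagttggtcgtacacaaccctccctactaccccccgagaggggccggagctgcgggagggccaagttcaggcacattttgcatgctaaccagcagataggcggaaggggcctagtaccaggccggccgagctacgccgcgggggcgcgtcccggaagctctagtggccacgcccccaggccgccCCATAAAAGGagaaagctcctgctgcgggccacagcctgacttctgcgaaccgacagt
Hspa1a (chr17:34972157-34972406, minus strand): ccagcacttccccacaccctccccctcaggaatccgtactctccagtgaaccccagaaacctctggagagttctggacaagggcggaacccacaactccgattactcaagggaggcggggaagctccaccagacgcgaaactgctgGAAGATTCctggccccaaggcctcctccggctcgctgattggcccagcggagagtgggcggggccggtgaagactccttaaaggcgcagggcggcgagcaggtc
Hspa1b (chr17:34959239-34959488, minus strand): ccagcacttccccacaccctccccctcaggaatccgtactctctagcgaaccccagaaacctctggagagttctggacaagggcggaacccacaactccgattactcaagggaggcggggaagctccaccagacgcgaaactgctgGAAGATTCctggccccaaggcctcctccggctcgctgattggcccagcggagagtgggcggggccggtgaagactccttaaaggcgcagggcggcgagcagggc

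On both strands, TGACGT was found in 5 of the 31 members' windows (16.1%; Fos, Atf3, Dusp1, Btg1 and Btg2) and in 6.47% of 32851 windows of all RefSeq starts. Its full form TGACGTCA, which contains the shorter letters, was found in Dusp1 and Btg2, 6.45% of the members against 1.55% of all windows. The CArG box was found in Zfp36 alone among the members and in 1.47% of all windows. GAANNTTC was found in Fosl2, Jun, Hspa1a and Hspa1b, 12.9% against 6.69%. TATAAA on the sense strand was found in Fos, Zfp36l1, Btg1, Gadd45b and Gadd45g, against 7.59% of all windows. TGAGTCA, the letters that AP-1 dimers bind, was in none of the 31 windows and in 4.46% of all. A match describes letters and is not a measured binding site.

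At the other end of the transcript lie the AU-rich elements that ZFP36 binds. The 9-letter form TTATTTATT was found in the GENCODE M21 3′ untranslated region of 6 of 36 members (16.7%) and of 8.17% of 15566 genes. A short stretch around it is printed for 3 members, with the element in capitals. Zfp36 itself carries one.
Fos: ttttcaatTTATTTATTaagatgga
Zfp36: tgacgactTTATTTATTgtattaag
Dusp1: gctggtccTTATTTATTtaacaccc
The shorter unit ATTTA had a median density of 2.39 per kilobase over the members and 1.32 over all genes.

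The promoters of Hspa1a and Hspa1b, neighbouring copies on chromosome 17, differ at 3 of 250 bases (98.8% identical). Of all 50-base words of the Hspa1a transcript 58.8% also occur in Hspa1b, but 0 of those in its last 600 bases, the end that this platform reads. Jun overlaps the antisense gene Junos, Junb overlaps Prdx2, Dusp1 overlaps Ergic1 and Cebpb overlaps Tmem189, each on the opposite strand. The annotated span of Dusp1 reaches 26562128, far past the promoter window printed above, and where along each gene the overlap lies was not examined. Whether counting used the strand is not given in the sources used here, so any part of such neighbours' reads in these counts was not tested.

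As shares of all UMIs, the members were most abundant in macrophage-like cells, high in vascular ones, low in most ameloblast clusters and lowest in red cells. The 32 members other than heat shock summed to 38985 CPM in control cells and 34815 CPM in the mutant macrophage-like all-cell cluster 4. In the endothelium-like all-cell cluster 8 they summed to 15823 CPM in control cells and 16125 CPM in the mutant library. The pericyte and smooth muscle-like all-cell cluster 10 reached 12682 and 15238 CPM in the same order. All-cell cluster 23, led by Jchain, Chil3 and Ccr2, was also high, with 17080 and 16297 CPM. At the other extreme, erythroid-like all-cell cluster 18 held 548 and 462 CPM. Haemoglobin made up 88.5% of its control and 89.2% of its mutant UMIs, which lowers the share of every other gene there. Secretory ameloblast-like cluster 3, whose cells make the enamel matrix, held 1604 CPM in control cells and 2394 CPM in the mutant library. The enamel gene Amelx alone took 41.3% and 40.3% of the UMIs there, so these low shares partly reflect what else fills the total. Both libraries had the same highest and lowest cluster, and the plot of summed members by cluster shows it for all 26 clusters.

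**Figure D1:**
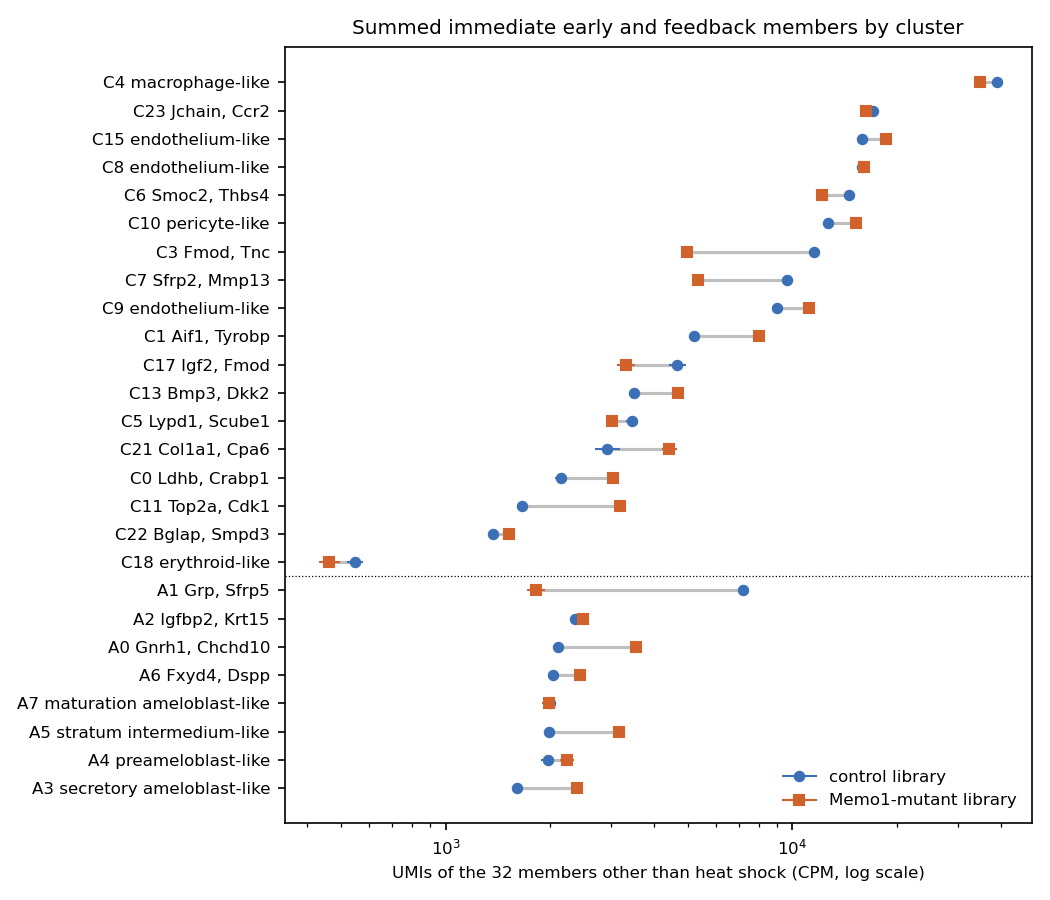
Level of the 32 members other than heat shock (CPM, log scale) in each of 26 clusters, as circles for the control and squares for the Memo1-mutant library; bars are 95% Poisson intervals, mostly narrower than the symbols, A marks ameloblast clusters and C all-cell clusters. Macrophage-like C4 lies at the top with 38985 and 34815 CPM, erythroid-like C18 at the bottom with 548 and 462 CPM, and A1 and C3 show the widest fall from control to mutant.

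Single members followed the same geography. Fos, the AP-1 subunit that is the usual read-out of acute induction, reached 3911 CPM in control cells and 3043 CPM in the mutant macrophage-like cluster. Its lowest control level was 29.1 CPM, in all-cell cluster 22 (led by the bone and dentin genes Bglap, Smpd3 and Dmp1), and its lowest mutant level 29.2 CPM, in maturation ameloblast-like cluster 7. Junb, another AP-1 subunit, stood at 4386 and 3820 CPM in macrophage-like cells, and Atf3, a stress-induced repressor of the same family, at 1402 and 1379 CPM. In control cells 21 of the 37 members had their highest level in the macrophage-like cluster, and in mutant cells 20 did. Klf2, the flow-induced factor of vessel lining, was instead highest in endothelium-like cluster 8, at 1364 CPM in control cells and 1763 CPM in the mutant library. The AP-1 subunit Fosl2 was highest in all-cell cluster 23 (led by Jchain, Chil3 and Ccr2), with 324 and 309 CPM. For Fos the first and second clusters in the mutant library, macrophage-like cluster 4 and all-cell cluster 6 at 3002 CPM, had overlapping intervals, whereas in the control library they did not (3911 and 3017 CPM).

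**Figure D2:**
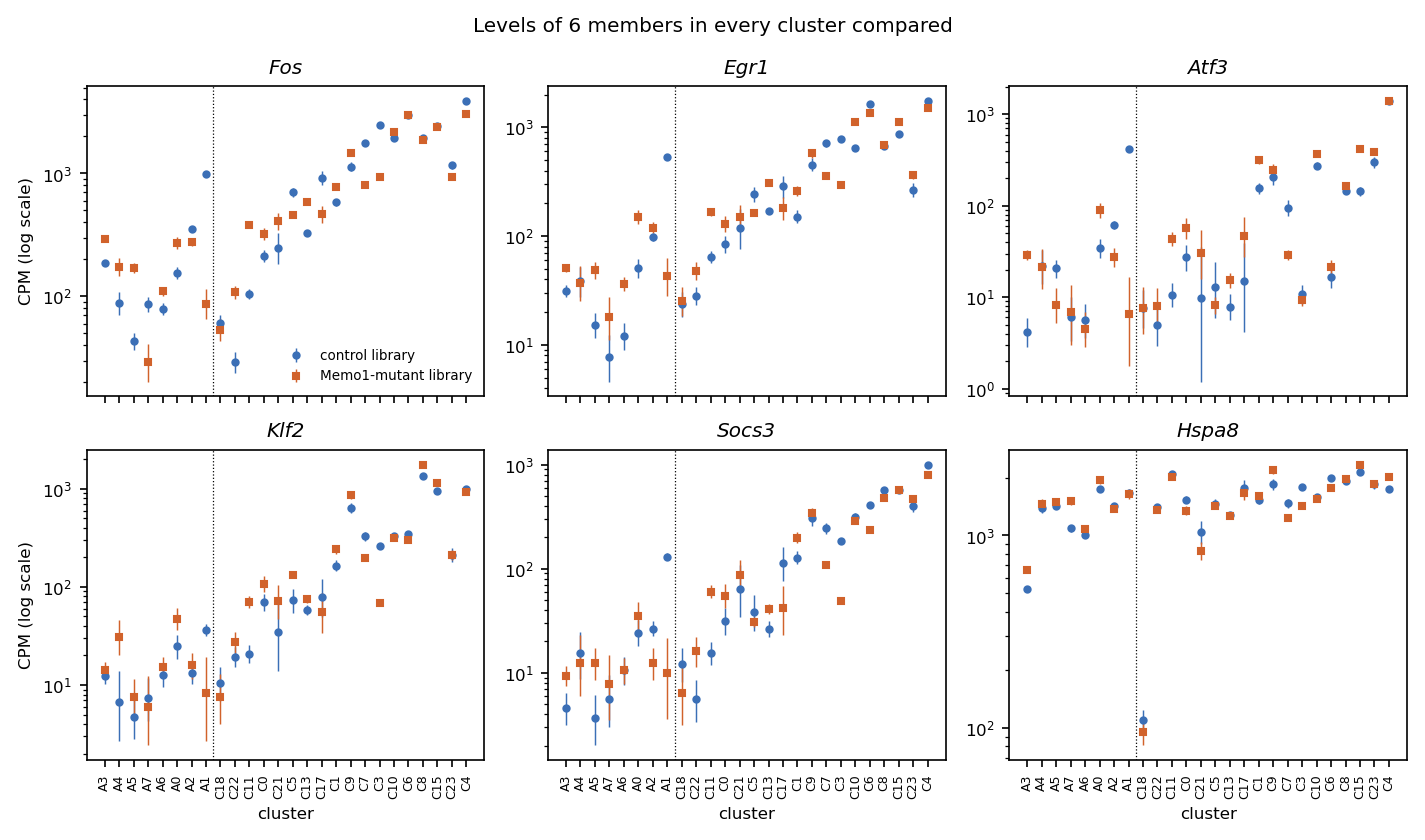
Levels (CPM, log scale) of Fos, Egr1, Atf3, Klf2, Socs3 and Hspa8 in each of 26 clusters, ordered as in the plot of summed members, with ameloblast clusters left and other cells right of the dotted line; circles are the control and squares the Memo1-mutant library, with 95% Poisson intervals. The chaperone Hspa8 lies near equality in most clusters, and Atf3 in A1 falls from 414 to 6.57 CPM.

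Summed over all cells, most members stood a little higher in the mutant library, with few calls. The ratio was above 1 for 32 of 35, and the median log2 ratio was 0.22, against 0.13 for all genes. Members other than heat shock summed to 8856 CPM in control and 10371 CPM in mutant cells, a ratio of 1.171 (1.168 to 1.174). Of 35 members compared, 1 was called higher and 0 lower, where 1.5% of all genes compared were called higher and 1.24% lower. The one was Nr4a2, an orphan nuclear receptor, which had 37.0 CPM in control cells and 75.3 CPM in the mutant library, 2.04-fold higher (1.96 to 2.13). Outside the ameloblast lineage 0 of 35 members were called in either direction, against 0.57% of genes higher and 1.14% lower. The members' ratios there lay between 0.762 for Nr4a1, another orphan receptor, and 1.54 for Nr4a2. Macrophage-like cluster 4 supplied 47.3% of the control and 43.6% of the mutant member UMIs outside the lineage, from 15.7% and 15.4% of all UMIs there. Without it the count stayed at 0 of 35 in both directions, beside 0.669% of genes higher and 1.3% lower.

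Within the ameloblast lineage as a whole, 0 of 31 members were called higher and 5 lower, beside 1.48% and 1.58% of all genes. The median member had a log2 ratio of -0.25, and the median gene -0.04. Atf3 stood at 92.8 CPM in control cells and 22.4 CPM in the mutant lineage, 4.14-fold lower (3.78 to 4.55). Junb stood at 201 and 84.2 CPM, 2.38-fold lower (2.27 to 2.51). Nr4a1, Socs3 and Ier2 were the other 3, with fold differences of 3.43, 2.62 and 2.02. Rhob, a small GTPase induced by growth factors and stress, went the other way below the 2-fold line, with 156 CPM in control cells and 289 CPM in the mutant lineage.

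The lineage total rested on 1 control cluster. Ameloblast cluster 1, led by Grp, Sfrp5 and Pthlh, held 44.6% of the lineage's control member UMIs in 18.1% of its UMIs. In the mutant it was a much smaller cluster, with 75 cells against 495. Without it and its neighbour, ameloblast cluster 8, 0 of 30 members were called lower and 1 higher, where 1.48% of genes were higher and 1.35% lower. That one was Zfp36, with 20.4 CPM in control cells and 42.6 CPM in the mutant cells, 2.08-fold higher (1.87 to 2.32). The median log2 ratio of the members was then 0.19, and the 32 members other than heat shock summed to 1970 CPM in control cells and 2544 CPM in the mutant library.

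Read cluster by cluster, the members were called in both directions. Over the 26 clusters 811 member-by-cluster pairs were compared. Of these 10.97% were called higher (89 pairs) and 9.25% lower (75 pairs), whereas of 198546 pairs of all genes 3.44% were higher and 2.02% lower. The members were not matched to other genes by level. The median member ratio was above 1 in 16 clusters, 6 of them in the lineage. The authors made the clusters from the same counts, these genes included, and no member is among the 10 leading genes of any cluster. Leading genes were ranked against all other cells, so this cannot show whether the members shaped a border between similar clusters.

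**Figure D3:**
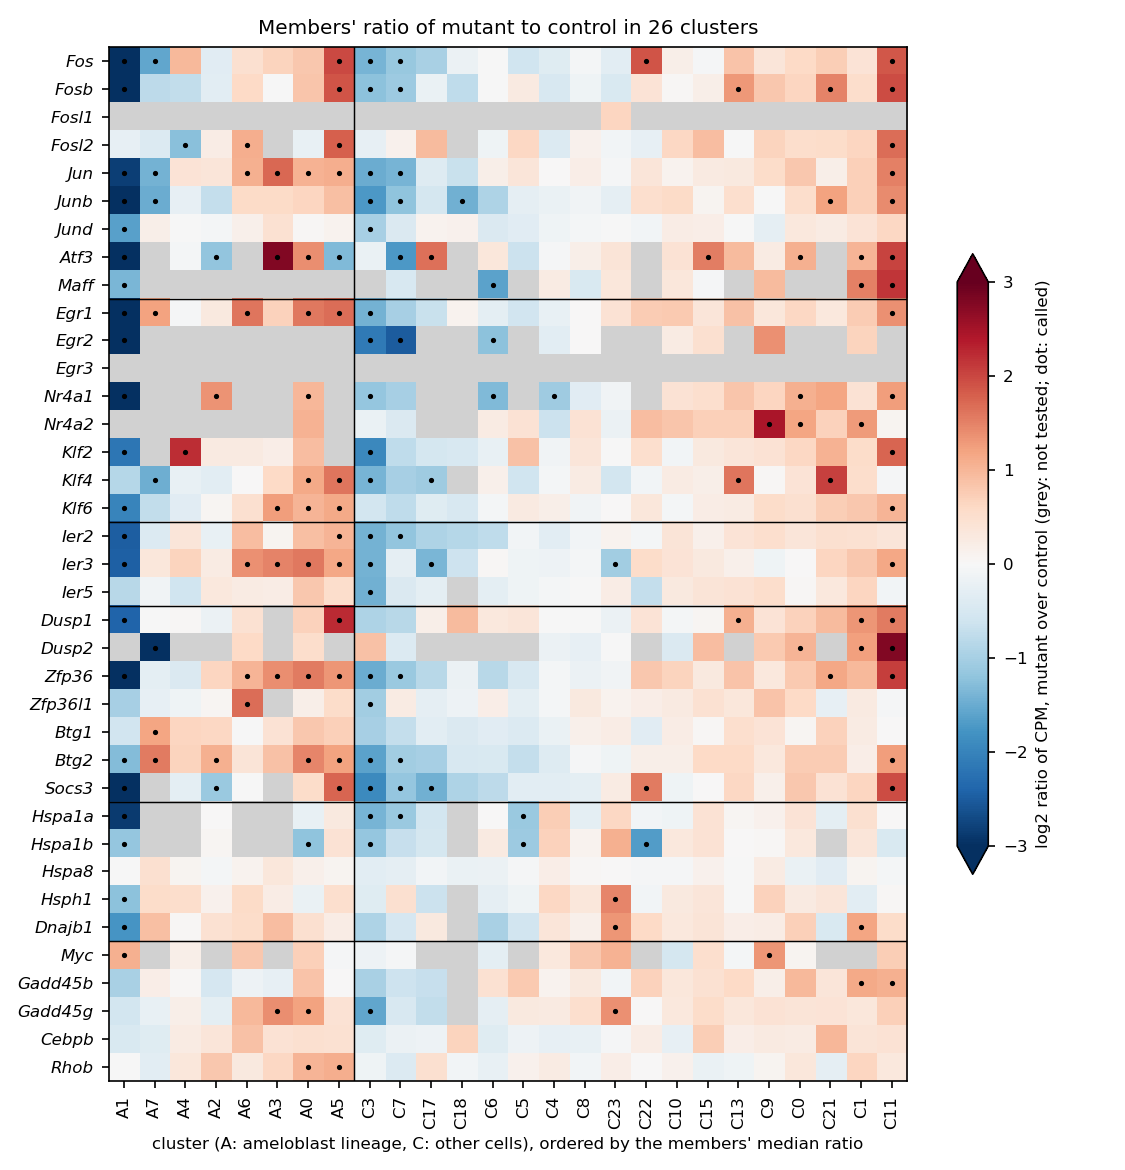
Log2 ratio of CPM, Memo1-mutant over control, for 37 members (rows, by role group) in 26 clusters (columns, ameloblast clusters left of the vertical line), red where higher and blue where lower in the mutant library, grey where not compared; dots mark the 89 higher and 75 lower calls. A1 (22 lower) and C3 (20 lower) are mostly blue, and A5 (14 higher) and C11 (18 higher) mostly red.

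The role groups differed in how far they ranged. For comparison, 3.44% of all gene-by-cluster pairs were called higher and 2.02% lower. AP-1 genes, summed, lay between 0.145 of the control level in ameloblast cluster 1 and 2.63 times it in all-cell cluster 11, with 26 of 187 pairs higher and 25 lower. Zinc finger factors and nuclear receptors spanned 0.152 to 2.58 times, with 22 of 145 pairs higher and 16 lower. Ier2, Ier3 and Ier5, summed, spanned 0.268 to 2.08 times, with 6 of 77 pairs higher and 8 lower. The feedback genes spanned 0.436 to 1.75 times, with 23 of 166 higher and 14 lower. Heat shock members, whose sum is mostly Hspa8, lay between 0.714 and 1.40 times the control, with 3 of 117 pairs higher and 11 lower. The summed level of growth and stress effectors lay between 0.658 and 1.64 times the control, with 9 of 119 pairs higher and 1 lower.

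Ameloblast cluster 1 had the most members called lower. Of 33 members compared there, 22 were called lower and 1 higher, beside 3.79% and 5.11% of all genes. The median member had a log2 ratio of -1.78, and the median gene 0.07. The 32 members other than heat shock summed to 7201 CPM in control cells and 1819 CPM in the mutant cluster, a ratio of 0.253 (0.238 to 0.268).

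Among its AP-1 genes 7 of 8 were lower. Fos had 988 CPM in control cells and 87.1 CPM in the mutant cluster, 11.3-fold lower (8.66 to 15.2). Junb had 756 and 60.8 CPM, 12.4-fold lower (9.01 to 17.7). Atf3 dropped the furthest, from 414 CPM (2418 counts) to 6.57 CPM (4 counts), with an interval of 24.6 to 232-fold. Jund, the subunit that most cells make without a stimulus, had 756 and 243 CPM, 3.11-fold lower. Fosl2, with 35.3 and 29.6 CPM, was the AP-1 gene not called.

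The zinc finger factors and the feedback genes were low as well. Egr1, the early zinc finger factor, had 530 CPM in control cells and 42.7 CPM in the mutant cluster, 12.4-fold lower (8.45 to 19.0). Nr4a1 had 76.6 and 4.93 CPM, with 3 mutant counts and an interval of 5.28 to 75.6-fold. The Krüppel-like factors Klf2 and Klf6 were 4.46-fold and 3.98-fold lower, and Ier2, a short nuclear protein induced by serum, was 5.56-fold lower. Among the feedback genes Socs3 had 131 and 9.86 CPM, 13.3-fold lower (6.07 to 36.3). Zfp36 had 158 and 16.4 CPM, 9.62-fold lower, and Dusp1 had 69.7 and 13.1 CPM, 5.31-fold lower. Btg2, whose promoter is printed above, had 277 and 113 CPM, 2.44-fold lower, while its relative Btg1 had 437 and 294 CPM and was not called.

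The heat shock genes split in this cluster. The inducible chaperone Hspa1a had 121 CPM in control cells and 16.4 CPM in the mutant cluster, 7.37-fold lower (3.99 to 15.4). Hspa1b had 117 and 52.6 CPM, 2.23-fold lower, and the co-chaperone Dnajb1 had 89.97 and 26.3 CPM, 3.42-fold lower. Hspa8, the chaperone present in every cell, had 1671 and 1646 CPM, a ratio of 0.985 (0.922 to 1.05). Myc, the growth regulator, was the one member called higher, with 10.3 and 21.4 CPM, 2.08-fold (1.05 to 3.83).

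The mutant cells of ameloblast cluster 1 were few and a little shallower: the median control cell had 9878 UMIs and the median mutant cell 7986. Markers of outer enamel epithelium and stellate reticulum, of which 2 of 5 were called lower, summed to 2213 CPM in control cells and 1053 CPM in the mutant cluster. Neutrophil markers summed to 93.2 and 21.4 CPM, macrophage markers to 96.7 and 80.5 CPM, and general epithelial markers to 3297 and 3104 CPM. The part these values have in the members' difference was not tested. The 12 reference genes of basic metabolism and structure summed to 0.988 times the control.

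Ameloblast cluster 8, led by Dcpp2, Ces1d and Grp, has 91 mutant and 0 control cells, so it could not be compared by itself. Its mutant cells held more of most members than those of cluster 1: Fos had 677 CPM, Junb 402 CPM, Egr1 422 CPM and Btg2 212 CPM. Some members were low in both, with Atf3 at 20.2 CPM and Socs3 at 36.3 CPM. When both clusters were joined, a choice made after the data were seen, 20 of 33 members were lower and 0 higher, beside 1.67% and 6.52% of all genes. Egr1, Dusp1, Btg2, Hspa1b and Hsph1 were then no longer called lower and Myc no longer higher, while Klf4, Gadd45b and Gadd45g were called lower. Fos stood at 988 CPM in control cells and 453 CPM in the joined mutant cells, 2.18-fold lower. Atf3 stood at 414 and 14.99 CPM, 27.6-fold lower, so its drop remained the widest whichever way the cells were divided.

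A second low cluster lay outside the ameloblast lineage. All-cell cluster 3, led by Fmod, Ifitm1 and Tnc, had 473 control and 1136 mutant cells of nearly equal depth, with medians of 13336 and 13458 UMIs. Of 34 members compared, 20 were called lower and 0 higher, beside 1.53% and 1.1% of all genes. The members' median log2 ratio was -1.17, and that of all genes 0.01. The 32 members other than heat shock summed to 11573 CPM in control cells and 4968 CPM in the mutant cluster.

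Fos had 2473 CPM in control cells and 940 CPM in the mutant cluster, 2.63-fold lower (2.57 to 2.69). Junb had 767 and 233 CPM, 3.29-fold lower (3.15 to 3.44). Egr2, a relative of Egr1 that is also a glial and neural crest factor, had 24.5 and 5.62 CPM, 4.36-fold lower (3.34 to 5.73). These intervals are narrow because the counts were large, and they do not cover the spread between mice. Klf2 had 264 and 69.2 CPM, 3.82-fold lower, and Socs3 had 186 and 49.4 CPM, 3.76-fold lower. Btg2 had 438 and 143 CPM, 3.05-fold lower. Ier2, Ier3 and Ier5, the small early response proteins, were all lower, between 2.65-fold and 2.72-fold. Atf3, in contrast with the epithelial cluster, was at 10.8 and 9.38 CPM here and not called. Hspa1a, with 319 and 122 CPM, and Hspa1b were lower, while Hspa8 had 1778 and 1431 CPM.

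Beside these values, markers of outer enamel epithelium and stellate reticulum summed to 3364 CPM in control cells and 1481 CPM in the mutant cluster 3, and pulp mesenchyme markers to 3105 and 4351 CPM. Of the 5 outer enamel markers only Igfbp5 was at least 2-fold above other cells, with both libraries summed. Of 4 general epithelial markers 0 were, and of 6 stratum intermedium and papillary layer markers 3 were (Cldn10, Enpp2 and Alpl). With both libraries summed, this cannot tell whether some epithelial cells lie in the cluster in either library. Macrophage markers, from the cells richest in the members, stood at 121 and 104 CPM. The part that these values have in the result was not tested.

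All-cell cluster 7, led by the matrix genes Sfrp2, Mmp13 and Tnn, resembled cluster 3. Of 35 members 11 were lower and 0 higher, beside 2.24% and 3.3% of genes. Egr2 had 39.6 CPM in control cells and 7.01 CPM in the mutant cluster, 5.64-fold lower (3.73 to 8.48). Atf3 had 95.4 and 28.9 CPM, 3.30-fold lower (2.60 to 4.16), and Jun had 988 and 374 CPM, 2.64-fold lower. The mutant cluster was larger (770 cells against 102), and its pericyte and smooth muscle markers summed to 1604 CPM against 274 CPM in the control. Of these 5 markers only Acta2 and Tagln were at least 2-fold above other cells, with both libraries summed. The part of these values in the result was not tested either.

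All-cell clusters 5 (led by Lypd1 and Scube1) and 6 (led by Smoc2 and Thbs4) show how a cluster border can set the count. Taken singly, 2 of 30 members were lower in cluster 5, beside 2.87% of genes, and 3 of 34 in cluster 6, beside 1.35%; 0 were higher in either, beside 1.94% and 0.999%. The members were abundant in cluster 6, at 14507 and 12177 CPM, and low in cluster 5, at 3454 and 3015 CPM. Control cells lay mostly in cluster 6, with 374 cells against 92 in cluster 5, and mutant cells mostly in cluster 5, with 1352 against 847. Joined after the data were seen, 13 of 34 members were lower and 0 higher, beside 2.23% and 1.2%. Junb then stood at 1748 CPM in control cells and 514 CPM in the mutant cells, and Egr1 at 1383 and 584 CPM.

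**Figure D4:**
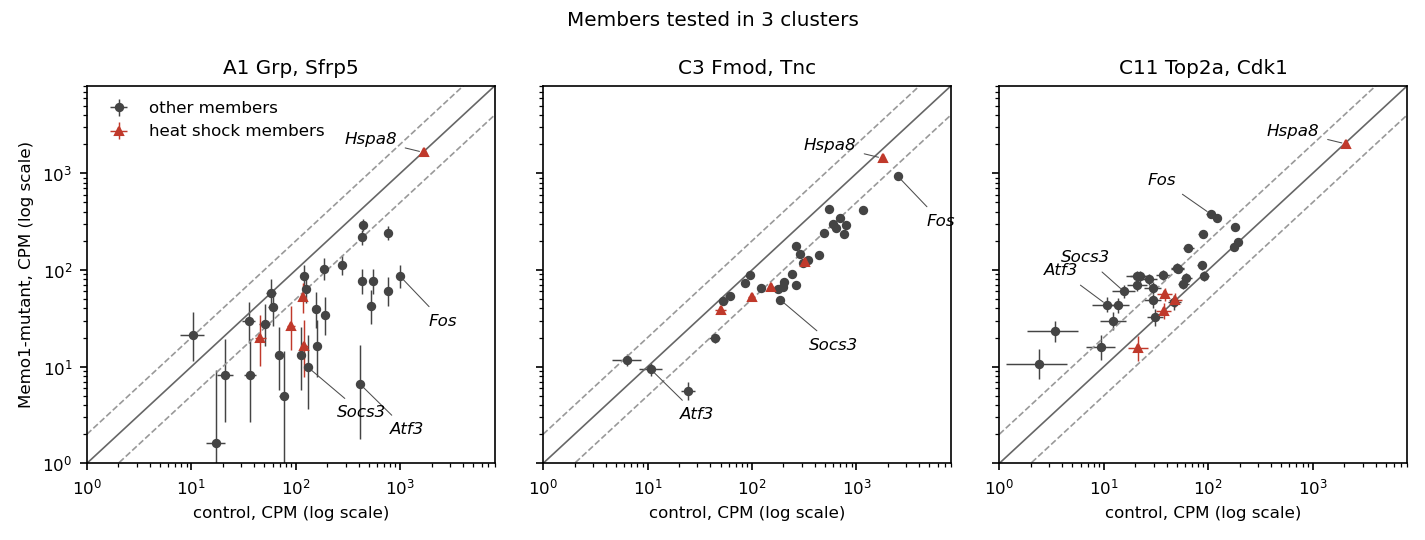
Level of each member compared in ameloblast cluster 1, all-cell cluster 3 and all-cell cluster 11, control CPM on the x axis and Memo1-mutant CPM on the y axis (log scales), with 95% Poisson intervals; triangles are heat shock members, the solid line is equality and dashed lines are 2-fold. Points fall below the lower dashed line in A1 (22 members lower) and C3 (20 lower) and above the upper one in C11 (18 higher), and Hspa8 lies near equality in all 3.

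Several ameloblast clusters went the opposite way. In the stratum intermedium and papillary layer-like ameloblast cluster 5, a layer beside the ameloblasts, 14 of 29 members were called higher and 1 lower, beside 5.2% and 0.549% of genes. The median log2 ratio was 0.90 for the members and 0.24 for all genes. Dusp1, the MAP kinase phosphatase, had 10.7 CPM in control cells and 51.0 CPM in the mutant cluster, 4.75-fold higher (3.33 to 6.91). Egr1 had 15.2 and 48.7 CPM, 3.21-fold higher (2.34 to 4.46), and Klf4, a factor of epithelial differentiation, had 19.9 and 60.4 CPM, 3.04-fold higher (2.30 to 4.04). Fosb, Fosl2 and Socs3 were between 3.38-fold and 3.68-fold higher. These genes were low in both libraries, under their levels in all-cell cluster 3 above. Atf3, the member called lower, had 20.7 and 8.25 CPM, but 65.8% of its control counts came from 1 cell, and without the top cell of each library its ratio was 0.90. The count of 14 fell to 8 with either set of scaling factors, to 5 with stricter cells and to 3 when cells were thinned to 1000 UMIs. Thinned cells hold fewer counts, so low members can drop below the 20 counts needed to be compared. The fall to 3 is therefore no measure of members compared and not called.

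Ameloblast cluster 0, led by Gnrh1 and Chchd10, is the lineage's largest and shallowest cluster, with 1155 control and 1023 mutant cells of median 1092 and 898 UMIs. Of 33 members 11 were called higher and 1 lower, beside 6.06% and 2.88% of genes. Egr1 had 50.6 CPM in control cells and 150.3 CPM in the mutant cluster, with 36.4% of the mutant counts in 1 cell. Zfp36 had 41.3 and 121 CPM, with 21.2% in 1 cell, and Atf3 had 34.5 and 90.02 CPM, with 47.3% in 1 cell. Without the 5% of cells with the most UMIs the count fell from 11 to 1, and with cells thinned to 1000 UMIs to 2. In thinned cells some members may again have had too few counts to be compared. Macrophage markers summed to 437 CPM in control cells and 872 CPM in the mutant cluster, and 3 of 6 were called higher. Pericyte markers summed to 84.1 and 224 CPM. Their part in the members' difference was not tested. Hspa1b, the member called lower, had 83.1 and 36.2 CPM, 2.30-fold lower (1.65 to 3.27).

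In secretory ameloblast-like cluster 3, 6 of 23 members were higher and 0 lower, beside 2.78% and 1.01% of genes. Besides Jun and Atf3, these were Ier3, Zfp36, Klf6 and Gadd45g. Gadd45g, a stress sensor of the p38 pathway, had 18.7 CPM in control cells and 49.3 CPM in the mutant cluster, 2.63-fold higher (2.17 to 3.19). Zfp36 had 17.1 and 45.0 CPM, 2.64-fold higher (2.16 to 3.24). For Ier3, a regulator of survival under stress, 59.6% of the mutant counts came from 1 cell. Macrophage markers here summed to 67.3 and 147 CPM, with 3 of 6 called higher, and their part was not tested. In ameloblast cluster 6 (led by Fxyd4 and Dspp) 6 of 28 members were higher and 0 lower, beside 5.31% and 0.657%. Jun, Ier3 and Zfp36 were called in both clusters, and Egr1 in cluster 6 but not in the secretory one. Fosl2 and Zfp36l1 were called in cluster 6 and were too low to be compared in the secretory one. The difference between the clusters was not tested. In cluster 6 Zfp36l1 had 10.1 and 32.03 CPM, 3.18-fold higher (2.24 to 4.601), and Egr1 had 12.05 and 36.4 CPM, 3.02-fold higher (2.19 to 4.23). With thinned cells the count fell from 6 to 2 in the secretory cluster and from 6 to 0 in cluster 6.

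Maturation ameloblast-like cluster 7, which hardens the enamel, was mixed. Of 25 members 3 were higher and 5 lower, beside 5.56% and 10.5% of genes. Jun had 164 CPM in control cells and 61.1 CPM in the mutant cluster, 2.68-fold lower (2.08 to 3.504). Fos had 85.9 and 29.2 CPM, 2.94-fold lower (2.04 to 4.36). Btg1 had 101 and 230 CPM, 2.26-fold higher (1.89 to 2.71). Of the AP-1 genes 3 of 6 compared were lower. The 78 mutant cells against 187 limit the precision, and thinned to 1000 UMIs per cell 0 members were called lower. In preameloblast-like cluster 4, 1 of 28 members was higher and 1 lower, beside 1.7% and 2.88%. Ameloblast cluster 2 (led by Igfbp2 and Krt15) had 2 of 30 in each direction, beside 5.25% higher and 1.27% lower. There Btg2 and Nr4a1 were higher, while Atf3, with 61.5 CPM in control cells and 27.2 CPM in the mutant cluster, and Socs3 were lower.

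The most members called higher anywhere were in all-cell cluster 11, whose leading genes Top2a and Cdk1 mark dividing cells. Of 34 members 18 were called higher and 0 lower, beside 6.3% and 1.36% of genes. The median log2 ratio was 1.04 for the members and 0.08 for all genes. Fos had 105 CPM in control cells and 381 CPM in the mutant cluster, 3.62-fold higher (3.24 to 4.05). Zfp36 had 20.6 and 86.6 CPM, 4.20-fold higher (3.28 to 5.44), and Socs3 had 15.5 and 60.3 CPM, 3.89-fold higher (2.91 to 5.26). Klf2 had 20.9 and 69.8 CPM, 3.35-fold higher (2.59 to 4.35). The highest ratio was that of Dusp2, a phosphatase of activated lymphoid and myeloid cells, at 6.85, but 60.9% of its mutant counts came from 1 cell. No heat shock member was called: Hspa8 had 2083 and 2013 CPM and Hspa1a had 37.6 and 38.1 CPM.

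Markers of several cell types differed between the libraries in cluster 11. Epithelial markers summed to 920 CPM in control cells and 451 CPM in the mutant cluster. Pulp mesenchyme markers summed to 2043 and 5242 CPM, with 5 of 6 higher, pericyte markers to 384 and 2128 CPM, with 5 of 5 higher, and erythroid markers to 270 and 12866 CPM, with 5 of 5 higher. The division markers themselves summed to 1730 and 1760 CPM. The part that this mix has in the members' difference was not tested. The count fell from 18 to 10 with cells thinned to 1000 UMIs and to 7 when each cell weighed the same.

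Few members were called in the macrophage-like, endothelium-like and pericyte-like clusters with high member levels. This did not hold for every cluster rich in members. All-cell cluster 3, at 11573 CPM in control cells, had 20 of 34 lower, beside 1.53% of genes. All-cell cluster 23, at 17080 and 16297 CPM, had 3 of 35 higher and 1 lower, beside 4.32% and 1.72%. In endothelium-like cluster 8, 0 of 35 members were called in either direction, beside 0.982% of genes higher and 0.62% lower. Fos had 1957 CPM in control cells and 1869 CPM in the mutant cluster, and Egr1 had 678 and 687 CPM. In endothelium-like cluster 15 the one member called was Atf3, of 35, beside 1.68% of genes higher and 2.47% lower, with 144 CPM in control cells and 415 CPM in the mutant cluster, 2.89-fold higher (2.58 to 3.24). Pericyte and smooth muscle-like cluster 10 had 0 of 35 in either direction, beside 2.69% and 1.06%. In macrophage-like cluster 4 the one of 35 called was Nr4a1, beside 0.966% of genes higher and 0.734% lower, with 489 and 233 CPM, 2.10-fold lower (2.00 to 2.20).

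Other clusters outside the lineage gave scattered calls. In all-cell cluster 22, 2 of 29 members were higher and 1 lower, beside 1.32% and 0.696% of genes. Fos had 29.1 CPM in control cells and 108 CPM in the mutant cluster there, 3.70-fold higher (2.93 to 4.69), with 21.03% of the mutant counts in 1 cell. All-cell cluster 13, led by Bmp3, Dkk2 and Col1a1, had 3 of 32 higher and 0 lower, beside 0.749% and 0.679%. They were Klf4, at 13.2 and 40.0 CPM, 3.03-fold higher (2.32 to 4.01), Fosb and Dusp1. In all-cell cluster 21, 4 of 29 were higher and 0 lower, beside 5.45% and 7.46%, among them Junb with 232 and 540 CPM, 2.33-fold higher (1.69 to 3.26). All-cell cluster 17, led by Igf2 and Fmod, had 1 of 29 higher and 3 lower, beside 3.69% and 2.08%, with Socs3 at 113 and 41.6 CPM.

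The remaining clusters called other members. All-cell cluster 1, whose leading genes Aif1 and Tyrobp are made by myeloid cells, held cells of median 866 and 846 UMIs. Of 34 members 7 were higher and 0 lower, beside 4.18% and 0.856% of genes. Dusp1 had 122 CPM in control cells and 304 CPM in the mutant cluster, 2.49-fold higher (2.08 to 2.99), and Dusp2 had 57.6 and 135 CPM. Maff, a small leucine zipper factor, had 14.9 and 42.6 CPM, 2.85-fold higher (1.71 to 4.95). In all-cell cluster 0, led by Ldhb and Crabp1, 4 of 33 were higher and 0 lower, beside 6.99% and 0.85%; they were Atf3, Dusp2, Nr4a1 and Nr4a2, each between 2.03-fold and 2.27-fold. All-cell cluster 23 had 3 of 35 higher and 1 lower, beside 4.32% and 1.72%. Its higher members were the chaperones Hsph1 and Dnajb1 and the stress sensor Gadd45g, and its lower one Ier3, with 914 and 441 CPM. Endothelium-like cluster 9 had 2 of 35 higher and 0 lower, beside 3.59% and 1.31%, among them Nr4a2 with 15.1 and 82.2 CPM. In erythroid-like cluster 18, 0 of 19 were higher and 1 lower, beside 5.88% and 4.49%; Junb had 64.6 and 23.7 CPM, with 41.6% of the control counts in 1 cell.

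Shares of a cluster can come from a few cells, so cells were also thinned to 1000 UMIs each and the 32 members other than heat shock counted per cell. In ameloblast cluster 1 the median was 5 member UMIs, with quartiles of 2 and 11, over 479 control cells (16 shallower ones left out). It was 1, with quartiles of 1 and 3, over 65 mutant cells (10 left out). Of the control cells 78.3% lay above the mutant median, and 3.08% of mutant cells lay above the control median. In all-cell cluster 3 the medians were 10 in control cells and 3 in the mutant library, with 67.7% and 16.3% above the other library's median. There the upper quartile moved from 17 to 6.25 and the lower from 2 to 1, so cells low in the members were present in both libraries and cells rich in them were a smaller share of the mutant cells.

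The same count was nearly equal in some clusters where the members were abundant. Macrophage-like cells had medians of 37 and 33 member UMIs per 1000, and endothelium-like cluster 8 had 11 and 11. In all-cell cluster 11 the medians were 1 and 2, over 326 and 196 cells, close to the level of a single UMI. The same holds for ameloblast cluster 5, with 2 and 3 over 211 and 174 cells. Ameloblast cluster 0 had 2 in both libraries.

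**Figure D5:**
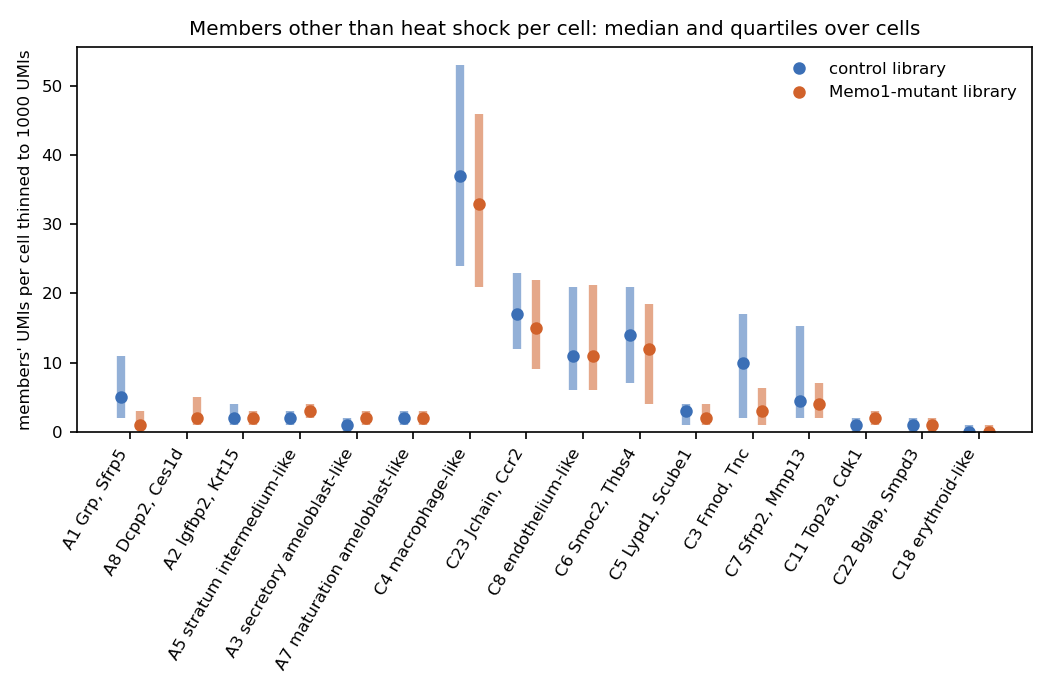
UMIs of the 32 members other than heat shock per cell after thinning each cell to 1000 UMIs, in 16 clusters; dots are medians and bars run from the lower to the upper quartile over cells, for the control and the Memo1-mutant library (A8 has no control cells). Control cells of A1 (median 5) and C3 (median 10) reach well above the mutant cells (medians 1 and 3), while C4 (37 and 33) and C8 (11 and 11) overlap.

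Members also varied together between cells of one cluster. With cells thinned to 5000 UMIs, Fos and Junb had a Spearman correlation of 0.78 over 439 control cells of ameloblast cluster 1. Fos and Egr1 reached 0.79 over 454 control cells of all-cell cluster 3. The pair Hspa1a and Hspa1b, near-copies with nearly the same promoter, reached 0.14 and 0.31 in the same cells. Over all pairs the median correlation was 0.149 in the first cluster (465 pairs) and 0.261 in the second, where it was 0.155 in the mutant library. In secretory ameloblast-like control cells the median over 91 pairs was 0.03. These cells share a library and its handling, and sparse genes pull such correlations toward 0, so the values describe these libraries and carry no p-value.

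Genes around the members were read from lists of the same biology. Of 26 further immediate early genes, 398 gene-by-cluster pairs were compared, with 28 higher and 36 lower, where 3.44% of all pairs were higher and 2.02% lower. In ameloblast cluster 1, 11 of 19 compared were lower and 0 higher, beside 3.79% and 5.11% of all genes. Ppp1r15a, the phosphatase subunit that lifts the stress block on translation, had 121 CPM in control cells and 16.4 CPM in the mutant cluster there. In all-cell cluster 3, 6 of 18 were lower and 0 higher, beside 1.53% and 1.1%, with Ppp1r15a at 248 and 79.5 CPM. In all-cell cluster 11, 5 of 17 were higher and 0 lower, beside 6.3% and 1.36%, and Ctgf, a target of YAP and SRF, had 18.9 and 123 CPM.

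The kinases and factors upstream of the module stayed near the control: 3 of 321 pairs were higher and 0 lower over 16 genes, and their summed ratio lay between 0.853 and 1.16. Beside this and the next 2 lists, 3.44% of all gene-by-cluster pairs were higher and 2.02% lower. Further heat shock genes, 23 in all, had 8 of 506 pairs higher and 7 lower, with summed ratios between 0.776 and 1.37. The 12 reference genes had 1 of 294 pairs higher and 11 lower. Their summed ratio reached down to 0.529, in all-cell cluster 21 (led by Col1a1 and Cpa6).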

How the data were processed

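Whole-number UMI counts per gene and cell were deposited by the authors as a sparse matrix, with a table that gives each cell's library and cluster. Cell Ranger (version not given), Seurat 3 and the mm10 genome are named per the submitters' processing notes. The filters on cells that the authors applied before deposit are not given in the sources used here, and doublets were not called. A dense table with the same totals per gene was not used.

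Counts were summed per library and cluster. Levels are CPM, and a ratio is mutant over control, with exact 95% intervals whose code was tested on simulated data. With 1 library per group no gene-wise test was run. edgeR 4.0.16 and DESeq2 1.42.0 (R 4.3.3) gave scaling factors for alternatives only. Sums and intervals were computed in Python 3.11.15 with pandas 2.3.3, scipy 1.17.1 and numpy 2.4.6, and figures with matplotlib 3.10.9. The 26 clusters compared have at least 50 cells in each library. Thinning drew 1000, 3000 or, for pairs of genes, 5000 UMIs per cell without replacement, leaving out shallower cells.

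Clusters carry a cell type name only where at least 3 detected markers support it and their leading genes do not go against it, and otherwise their number and leading genes. The members and lists were chosen with earlier results of these data known. All members could be named, with up to 8 in each direction per cluster, ranked by the interval bound nearer to 1, and up to 6 genes per further list. Promoters are from RefSeq (GRCm38.p6) and transcript ends from GENCODE M21. Alternatives covered scaling, filters, cell quality, single cells, thinning and how clusters were joined.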

Additional observations from a re-analysis of the deposited data

Results flagged for a closer look

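For 14 members the mutant to control ratio passed 2-fold in opposite directions, in at least 2 clusters each way. The share of all genes that did so was not counted, so whether 14 members are many cannot be told. Fosl2, Ier2, Dusp1, Dusp2, Zfp36l1, Hsph1, Dnajb1, Klf6 and Gadd45g were also called both ways, with 1 cluster in one or both of the directions. The difference between those clusters was not tested, since each cluster has 1 library per genotype. Among AP-1 genes, Fos was higher in 3 clusters and lower in 4, Fosb higher in 4 and lower in 3, Jun higher in 5 and lower in 4, and Junb higher in 2 and lower in 5. Atf3 was higher in 7 and lower in 4, and Maff higher in 2 and lower in 2. Among the zinc finger factors and nuclear receptors, Egr1 was higher in 5 and lower in 2, Klf2 higher in 2 and lower in 2, Klf4 higher in 4 and lower in 3, and Nr4a1 higher in 4 and lower in 4. Ier3 was higher in 5 and lower in 4. Among the feedback genes, Zfp36 was higher in 6 and lower in 3, Btg2 higher in 5 and lower in 3, and Socs3 higher in 3 and lower in 5. Ameloblast cluster 1 and all-cell cluster 3 are among the lower clusters for Fos, Jun, Junb and Egr1, and all-cell cluster 11 is among the higher ones for each of these.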

How the results depend on the processing

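No paired analysis was possible because each group has 1 library. The cause of the shifts below was not tested unless the setting shows it. In the whole lineage the 5 members called lower became 10 with stricter cells (at least 1000 UMIs, 500 genes and at most 10% mitochondrial counts), 3 with cells thinned to 1000 UMIs, 1 with the mean of per-cell CPM, 8 with no filter on low counts, 11 at a fold of 1.5 and 0 without ameloblast clusters 1 and 8, an alternative added after the data were seen. The 0 higher became 3 at a fold of 1.5 and 1 without those clusters. Outside the lineage the 0 higher became 1 at a fold of 1.5. Shares of all genes called were not counted for changes of fold, filter, cells or thinning, so these shifts cannot be set against other genes. The number of members compared can also change with the filter, the cells used and the thinning. The 16 clusters with a median member ratio above 1 stayed within 1.5 times under every alternative run. Thinned to 3000 in place of 1000 UMIs per cell, the members other than heat shock went from 3238 to 3595 CPM in the control lineage, from 11210 to 14196 in control and from 11349 to 12100 in mutant cells outside it, from 5054 to 4895 in mutant all-cell cluster 3 and from 3408 to 2876 in mutant all-cell cluster 11, where the deeper setting leaves out more cells. Ratios of 2 members changed direction: Atf3 in ameloblast cluster 0 came to 0.945 with stricter cells and 0.615 with cells thinned to 1000 UMIs, and Egr1 in ameloblast cluster 7 to 0.839 with thinned cells. The Egr1 value rests on very few counts: 146 control and 58 mutant cells were thinned, and its levels were 7.77 and 18.1 CPM before thinning. A count of 0 is set to 3 in such a ratio, so its direction there cannot be told. Of 100 recomputed counts per cluster, 73 stayed within 1.5 times of their value. Of the recomputed ratios of single members, 335 stayed inside the main interval, 110 moved outside it in the same direction and 3 changed direction. The members lower in ameloblast cluster 1 ranged from 16 to 26 and those in all-cell cluster 3 from 20 to 24. In all-cell cluster 7 the 11 lower became 7 with stricter cells, and in all-cell cluster 1 the 7 higher became 13.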

Other observations

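Genes of the NF-kB feedback and cytokine list, which are induced by inflammatory signals and by handling, were called mostly in one direction. Of 231 gene-by-cluster pairs over 16 genes 72 were higher and 5 lower, where 89 of 811 member pairs were higher and 75 lower and 3.44% of all gene pairs were higher and 2.02% lower. The difference between the lists was not tested, and the summed ratio was above 1 in 21 of 26 clusters. Cxcl2, a chemokine that draws neutrophils and is made mostly by myeloid cells, was higher in 18 clusters and lower in 0. In macrophage-like all-cell cluster 4 it had 5914 CPM in control cells and 6614 CPM in mutant cells, a ratio of 1.12 (1.11 to 1.13). In ameloblast cluster 0 Cxcl2 had 31.6 and 134 CPM, and in pericyte-like all-cell cluster 10 it had 13.6 and 55.0 CPM. Ccl2, which draws monocytes, was higher in 12 clusters and lower in 1. Cxcl2 was also higher in ameloblast cluster 1 (10.1 and 23.003 CPM) and in all-cell cluster 3 (6.24 and 17.996 CPM), where 22 and 20 of the members were lower.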
